A study of Mus musculus with 48 samples.

Results

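The Zscan4 genes are a group of near-identical mouse genes. The protein-coding copies encode proteins with a SCAN domain and zinc fingers, while Zscan4a and Zscan4e are listed by RefSeq as pseudogenes. The members described here are Zscan4a, Zscan4b, Zscan4c, Zscan4d, Zscan4e and Zscan4f, chosen by symbol: 6 of the 48321 rows of the deposited expression table. All 6 passed the minimum for testing, as did 16179 rows in all, and no other row of the table had a symbol starting with Zscan4. RNA was measured by sequencing of polyadenylated transcripts in male mouse embryonic stem cells of the R1 line (strain 129SV), with 9 libraries in 3 groups of 3.

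The groups were a line with catalytically deficient Mll3 and Mll4 (dCD), a line with both genes knocked out (dKO) and the wild-type line (WT). Mll3 and Mll4, encoded by Kmt2c and Kmt2d, are methyltransferases that place monomethylation on lysine 4 of histone H3, mainly at enhancers. All 3 lines were grown without serum in 2i medium with LIF, in which inhibitors of MEK and GSK3 hold the cells in a naive pluripotent state. The labels name 1 line per genotype, so a genotype and the line that carries it cannot be told apart. Whether the 3 libraries of a line are separate cultures is not stated. The p-values therefore describe library-to-library spread, possibly technical spread alone.

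Zscan4 transcripts appear in the mouse embryo at the 2-cell stage, when the zygotic genome is switched on. In embryonic stem cell cultures they are found in a small, changing fraction of cells, called 2-cell-like cells, which express other genes of that stage as well. Zscan4 proteins are known for lengthening telomeres through recombination between sister chromatids and for preserving a stable genome during long culture.

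The stretch upstream of the genes is shown to let the copies be compared where transcription starts. RefSeq's promoter windows (GRCm38.p6, 250 bases before to 50 after each annotated start) matched 4 of the 6 members by symbol: Zscan4b, Zscan4c, Zscan4d and Zscan4f. The deposited values were made on build mm9, so these positions belong to the sequences alone. Each line gives the 216 bases that the 4 windows have in common before any annotated start, on the strand of the gene and from 5′ to 3′. Capitals mark the positions at which the 4 differ.
Zscan4b: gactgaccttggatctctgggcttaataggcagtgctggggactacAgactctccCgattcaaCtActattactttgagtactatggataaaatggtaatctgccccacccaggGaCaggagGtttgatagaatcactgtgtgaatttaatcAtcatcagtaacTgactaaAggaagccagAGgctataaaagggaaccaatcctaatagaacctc
Zscan4c: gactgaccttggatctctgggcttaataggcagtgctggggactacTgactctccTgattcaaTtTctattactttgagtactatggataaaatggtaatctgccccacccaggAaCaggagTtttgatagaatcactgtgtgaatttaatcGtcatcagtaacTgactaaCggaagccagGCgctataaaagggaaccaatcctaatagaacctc
Zscan4d: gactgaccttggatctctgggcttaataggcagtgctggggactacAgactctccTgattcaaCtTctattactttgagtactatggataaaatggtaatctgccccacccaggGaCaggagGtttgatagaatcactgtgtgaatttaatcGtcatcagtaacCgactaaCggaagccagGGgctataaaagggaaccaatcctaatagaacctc
Zscan4f: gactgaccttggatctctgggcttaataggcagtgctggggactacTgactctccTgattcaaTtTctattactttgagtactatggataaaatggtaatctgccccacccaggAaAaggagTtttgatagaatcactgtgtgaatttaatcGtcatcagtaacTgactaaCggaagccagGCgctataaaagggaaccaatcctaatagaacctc

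These stretches lie at chr7:10905051-10905266 on the minus strand for Zscan4b, chr7:11005506-11005721 on the plus strand for Zscan4c, chr7:11166183-11166398 on the minus strand for Zscan4d and chr7:11397699-11397914 on the plus strand for Zscan4f. The 4 differed at 12 of 216 positions, and 94.4% of positions were the same in all. Zscan4c and Zscan4f were closest, with 1 differing base, and Zscan4b and Zscan4f were farthest apart, with 11 differing bases (94.9% identity). The annotated starts lay past the 3′ end of these stretches, with 0 bases between for Zscan4b and Zscan4f, 23 for Zscan4c and 34 for Zscan4d.

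Motifs were searched on both strands of the RefSeq windows. TATAAA, the core of the TATA box that positions the start of transcription, was found in 4 of 4 members and in 13.6% of all 32851 promoters. CCAAT, bound by the factor NF-Y, was in 4 of 4 members and in 37.4% of all promoters. The motif of Dux, an activator of the 2-cell stage, was in 0 of 4 members and in 0.0335% of all promoters. A wider form with 1 more free position, chosen after the sequences were seen, was in 4 of 4 members, as TGATAGAATCA, and in 0.207% of all promoters, and it takes in every match of the narrower form. The motif TGCACAC, reported for Zscan4 itself, was in 0 of 4 members and in 4.40% of all promoters. The whole 300-base RefSeq windows, longer than the stretches printed, held 1 CpG in Zscan4b, 4 in Zscan4c, 3 in Zscan4d and 3 in Zscan4f, beside a median of 7 over all promoters. A match describes letters only, and no binding was measured for these windows here.

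Facts that bear on every value are the following. Recovered depth was 31833673 to 56249770 reads in dCD, 25956251 to 33392132 in dKO and 21090624 to 40519709 in WT. Kmt2c measured 25.26 to 28.56 TPM in dCD, 7.44 to 8.0 TPM in dKO and 19.68 to 21.93 TPM in WT. Kmt2d averaged 63.2 ± 7.44 TPM in dCD, 82.9 ± 2.21 in dKO and 66.4 ± 1.08 in WT (SD, n = 3 each). Which stretch of either gene was edited is not stated, and reads from beyond that stretch would check nothing. TPM is transcript abundance scaled by gene length and library total. Fold changes are differences of log2(TPM + 1), which understates the change of low genes, and they were tested with limma in 1 fit of all 9 libraries at a Benjamini-Hochberg adjusted p under 0.05.

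In the dCD line every Zscan4 copy was higher than in WT. Zscan4a, the copy with the highest level in dCD, measured 22.28, 25.50 and 24.62 TPM in dCD libraries, against 2.65, 2.17 and 1.86 TPM in WT libraries. The lowest dCD library was far above the highest WT library. The log2 fold change was 2.97 (SE 0.101, limma adjusted p = 4.93e-09), and the ratio of mean TPM was 10.8. Zscan4a is listed as a transcribed pseudogene in the RefSeq table, whereas the deposited table gives it no type.

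Zscan4d, the copy that gives the main transcript of the 2-cell mouse embryo, measured 20.55, 21.62 and 21.18 TPM in dCD, against 1.38, 2.01 and 1.5 TPM in WT. Its 3 dCD values lay close together and did not overlap the WT values. With limma, the log2 fold change was 3.08 (SE 0.0871, adjusted p = 1.54e-09), the largest of the 6 members, and ranked 32 from the highest signed fold change among the 16179 tested genes.

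Zscan4c, the copy most often described in embryonic stem cells, measured 14.01, 15.10 and 14.34 TPM in dCD, against 1.13, 1.39 and 0.83 TPM in WT. The groups did not overlap, and the ratio of mean TPM was 13, the same as for Zscan4d. The log2 fold change was 2.88 (SE 0.120, limma adjusted p = 2.18e-08).

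The remaining copies had lower levels. Zscan4e, listed by RefSeq as a pseudogene, measured 11.20, 10.02 and 11.54 TPM in dCD, against 0.57, 0.81 and 1.40 TPM in WT (log2 fold change 2.65, SE 0.140, adjusted p = 1.13e-07 by limma). Zscan4f measured 8.64, 8.43 and 7.90 TPM in dCD, against 0.85, 0.77 and 0.89 TPM in WT (log2 fold change 2.34, SE 0.156, limma adjusted p = 6.35e-07). Zscan4b, the lowest copy in all 3 lines, measured 4.35, 3.67 and 4.58 TPM in dCD, against 0.71, 0.50 and 0.26 TPM in WT (log2 fold change 1.81, SE 0.134, limma adjusted p = 1.40e-06). No dCD library overlapped a WT library for any of these 3 copies.

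**Figure D1:**
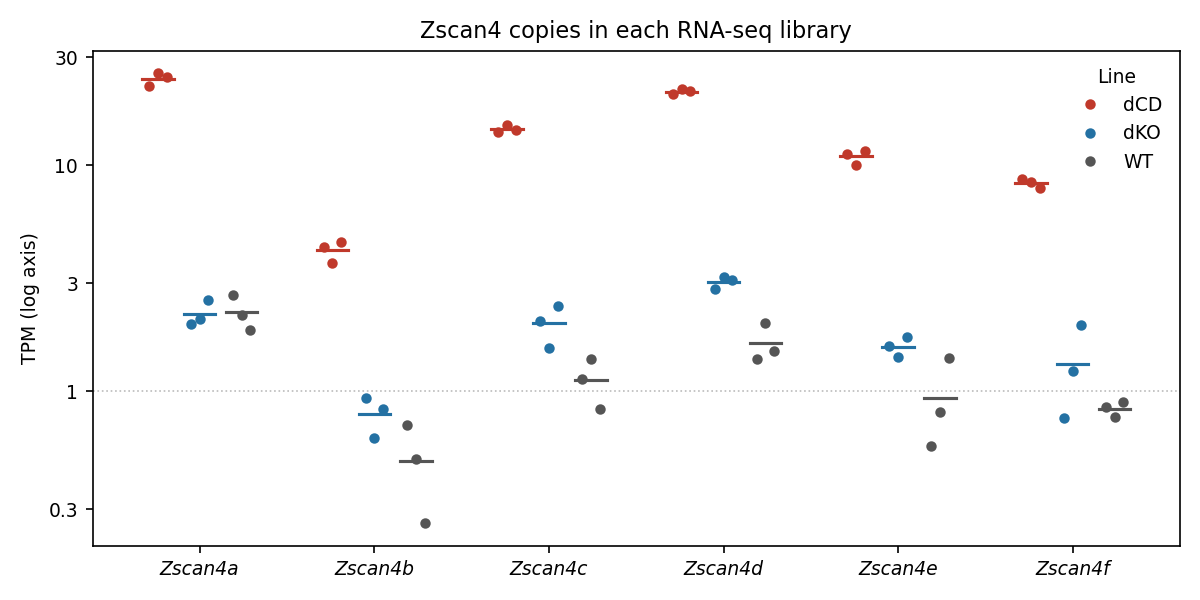
Level of each Zscan4 copy in TPM (vertical axis, logarithmic) in the dCD, dKO and WT libraries; points are libraries, short bars are the mean of 3 and the dotted line is the minimum of 1 TPM. All dCD points lie above all dKO and WT points for each copy, while dKO and WT points overlap for Zscan4a, Zscan4b and Zscan4f.

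All 6 members were thus higher in dCD than in WT, each by at least 2-fold, and their median log2 fold change was 2.76. At the adjusted p alone 28.9% of the tested genes were called higher and 29.5% lower, and 4.62% were higher by at least 2-fold as well. The median over all tested genes was -0.01. Libraries did not overlap, with dCD above WT, for 31.2% of tested genes. Zscan4b and Zscan4f passed the minimum of 1 TPM in 3 libraries through the dCD libraries, since 0 and 2 of their other 6 libraries reached it, so their being called is not support of its own. The other 4 copies would have passed without dCD. By voom on the recovered reads, where the added count is smaller, the log2 fold changes were 3.08 to 3.66.

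The reads behind these levels set their precision. In WT, Zscan4b rested on 10, 11 and 3 reads and Zscan4e on 8, 18 and 16 reads, while Zscan4d rested on 46, 106 and 41 reads. In dCD, Zscan4d held 956, 898 and 1541 reads and Zscan4b 85, 64 and 140 reads. For the 3 reads of Zscan4b in WT replicate 3, the exact Poisson interval, which covers counting error only, was 0.619 to 8.77 reads. Reads that match several copies could have been placed on a single copy, counted for several or dropped. Their treatment is not given in the sources used here, so the level of any single copy is uncertain. Were reads counted for several copies, a sum over the copies would be uncertain as well.

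In the dKO line 3 of the copies were higher than in WT and none was lower. Zscan4c, Zscan4d and Zscan4e rose by less than 2-fold on the log2(TPM + 1) scale. Zscan4d measured 2.83, 3.18 and 3.09 TPM in dKO, against 1.38, 2.01 and 1.5 TPM in WT, with every dKO library above every WT library. Its log2 fold change was 0.62 (SE 0.0871, limma adjusted p = 8.43e-05).

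Zscan4c measured 2.04, 1.55 and 2.38 TPM in dKO, against 1.13, 1.39 and 0.83 TPM in WT. The groups did not overlap, with the lowest dKO library just above the highest WT library, and the log2 fold change was 0.50 (SE 0.120, limma adjusted p = 0.00358). Zscan4e measured 1.58, 1.41 and 1.73 TPM in dKO, against 0.57, 0.81 and 1.40 TPM in WT. These groups all but touched, and the log2 fold change was 0.44 (SE 0.140, limma adjusted p = 0.0167). The Zscan4e call was lost without dKO replicate 3 (0.39, limma adjusted p = 0.0532) and without WT replicate 1 (0.30, limma adjusted p = 0.0591).

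The other 3 copies did not pass the test in dKO. Zscan4a measured 1.98, 2.09 and 2.53 TPM in dKO, against 2.65, 2.17 and 1.86 TPM in WT, and the libraries were interleaved (log2 fold change -0.01, SE 0.101, limma adjusted p = 0.939). Zscan4b measured 0.93, 0.62 and 0.83 TPM in dKO, against 0.71, 0.50 and 0.26 TPM in WT (0.27, SE 0.134, limma adjusted p = 0.0906). Zscan4f measured 0.76, 1.22 and 1.96 TPM in dKO, against 0.85, 0.77 and 0.89 TPM in WT (0.30, SE 0.156, limma adjusted p = 0.108). Its dKO libraries were the most spread of any copy. Single settings brought Zscan4b and Zscan4f past the threshold: Zscan4b without WT replicate 1 (0.38, limma adjusted p = 0.0312), and Zscan4f without dKO replicate 1 (0.48, limma adjusted p = 0.00637) or by voom (0.56, limma adjusted p = 0.0456).

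With 3 of 6 members higher in dKO than in WT, the count stood beside 43.4% of all tested genes called higher and 28.4% called lower there, and 0 members beside 6.01% at 2-fold or more. The count at the adjusted p alone is close to the share of all genes and is no result about the family. The members' median was 0.37 and that of all tested genes 0.10, and scaling by median ratios moved the median of all genes to 0.01. Libraries did not overlap, with dKO above WT, for 45% of all tested genes. The dCD and dKO comparisons share the WT libraries, so their values are not independent.

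**Figure D2:**
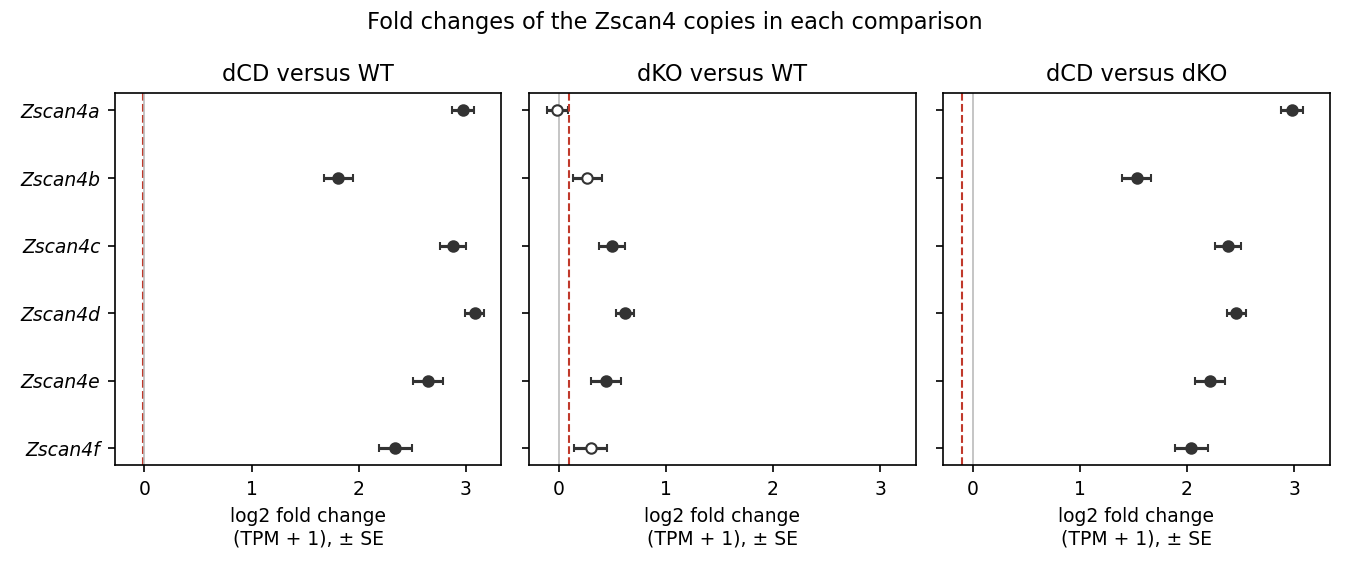
Log2 fold change of each Zscan4 copy (horizontal axis, difference of log2(TPM + 1)) in the comparisons dCD versus WT, dKO versus WT and dCD versus dKO; bars are the limma SE, filled points have an adjusted p under 0.05 and the red dashed line is the median of all tested genes. Values lie between 1.81 and 3.08 for dCD versus WT, between -0.01 and 0.62 for dKO versus WT and between 1.53 and 2.98 for dCD versus dKO.

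The mutant lines were also compared directly, which tests whether these lines differ and not whether catalytic loss and knockout do. All 6 members were higher in dCD than in dKO, by at least 2-fold, beside 27% of tested genes called higher, 42.3% called lower and 7.36% called higher by at least 2-fold. Median-ratio scaling raised the share of higher calls among all called genes to 50.2%, against 39.0% with library totals as deposited; the 6 members remained higher by at least 2-fold under both. Every dCD library exceeded every dKO library for each copy, as for 28.4% of all tested genes. Zscan4a was at 2.98 (SE 0.101, limma adjusted p = 2.22e-09), Zscan4d at 2.46 (SE 0.0871, limma adjusted p = 3.03e-09) and Zscan4c at 2.38 (SE 0.120, limma adjusted p = 4.29e-08). Zscan4e was at 2.21, Zscan4f at 2.04 and Zscan4b at 1.53 (limma adjusted p = 2.40e-07, 1.02e-06 and 2.86e-06). Since Zscan4b and Zscan4f passed the filter through the dCD libraries, their calls here are not support of their own either. The members' median was 2.29 and that of all tested genes -0.10.

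Because reads of near-identical copies can be assigned to the wrong copy, the family was also taken as 1 unit. Summed over the copies, the level in RPM, reads scaled to the library total, was 70.4, 74.7 and 73.0 in dCD, 8.67, 9.10 and 11.0 in dKO, and 6.14, 6.79 and 5.83 in WT. The 3 groups did not overlap, and each line's libraries lay close together. The means were 72.7 ± 2.18 in dCD, 9.59 ± 1.24 in dKO and 6.25 ± 0.488 in WT (SD, n = 3 each). The ratio of means was 11.6 for dCD over WT, 1.53 for dKO over WT and 7.58 for dCD over dKO; no p is given for a sum over chosen genes. These sums rested on 2378 to 4106 reads in dCD, 225 to 324 in dKO and 123 to 275 in WT. In bulk RNA, more cells that express Zscan4 and more Zscan4 RNA in each cell cannot be told apart.

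**Figure D3:**
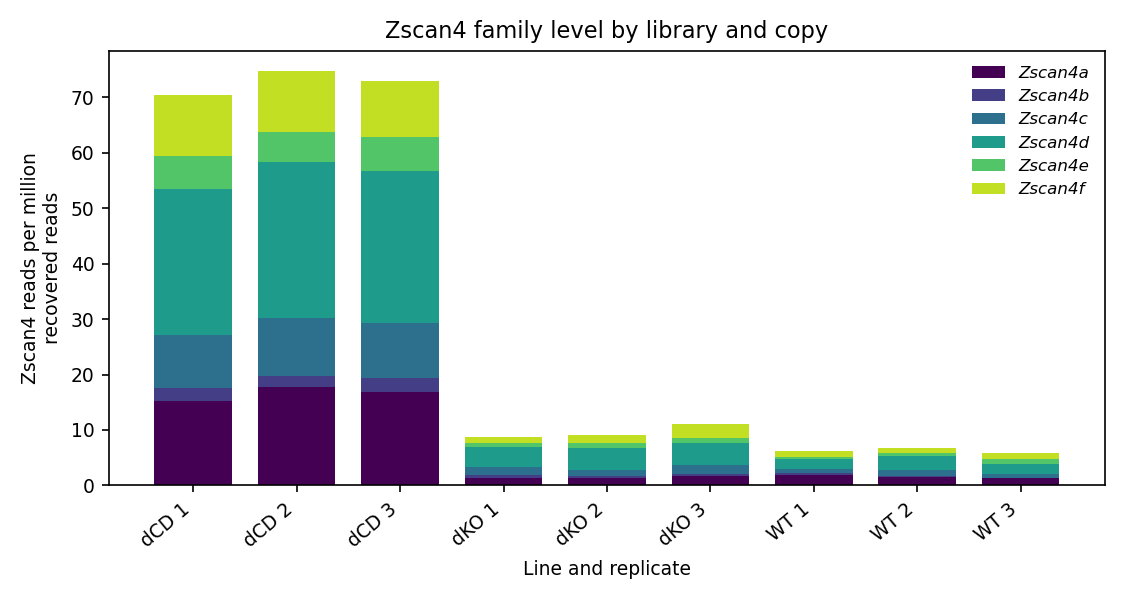
Zscan4 reads in RPM (vertical axis, not scaled by gene length) in each of the 9 libraries, split by copy in stacked bars. The 3 dCD bars reach 70.4 to 74.7 RPM, the dKO bars 8.67 to 11.0 and the WT bars 5.83 to 6.79.

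On the TPM scale, which allows for gene length, the sums were 81.0, 84.3 and 84.2 TPM in dCD, 10.1, 10.1 and 12.5 TPM in dKO, and 7.29, 7.64 and 6.75 TPM in WT. The share of each copy in this sum was compared between the lines. Zscan4a held 29.0% ± 1.39 of the summed TPM in dCD, 20.2% ± 0.572 in dKO and 30.8% ± 4.83 in WT (SD, n = 3 each), with every dKO library below every dCD and WT library. Zscan4d held 25.4% ± 0.235 in dCD, 28.1% ± 3.47 in dKO and 22.5% ± 3.67 in WT. The difference of the Zscan4a share was 8.84 points for dCD minus dKO and -10.6 points for dKO minus WT. Both had an exact two-sided permutation p = 0.10, the smallest that 3 libraries against 3 allow, and an adjusted p = 0.450 over 18 such tests. Between dCD and WT no share differed by more than 2.92 points (exact permutation p = 0.400 for that one, Zscan4d).

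The order of the copies was clear in dCD and blurred elsewhere. In dCD the order by TPM was Zscan4a, Zscan4d, Zscan4c, Zscan4e, Zscan4f and Zscan4b, and no neighbours in that order overlapped. In dKO Zscan4d came first and did not overlap Zscan4a, the next, while the neighbours from Zscan4a to Zscan4b overlapped. In WT the neighbours from Zscan4a to Zscan4f overlapped, and Zscan4f did not overlap Zscan4b.

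Genes next to the copies were at 0 or too low to be tested, with 1 exception. The copies lie in a cluster on chromosome 7, and between the first and the last of them the RefSeq table holds 24 other genes, of which 1 has a row, the microRNA gene Mir297-1, listed at 0. Of the 20 nearest flanking genes with a row, 10 on each side, 11 were listed at 0 in all libraries, most of them vomeronasal receptor genes (a family of scent receptors) or pseudogenes of that family. The 1 tested neighbour was Zik1, a zinc finger gene. It measured 8.99 ± 0.438 TPM in dCD, 9.41 ± 0.336 in dKO and 9.65 ± 0.822 in WT (SD, n = 3 each). It did not pass the test, with a log2 fold change of -0.09 for dCD versus WT (limma adjusted p = 0.252) and -0.03 for dKO versus WT (limma adjusted p = 0.682).

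Genes known to switch on Zscan4 or the 2-cell-like state were examined as a list of 9, of which 8 had a row and were tested. In dCD 3 were higher than in WT and 3 lower, with a median log2 fold change of -0.06. In dKO 3 were higher and 4 lower (median -0.25), and in dCD against dKO 5 were higher and 1 lower (median 0.38). Of all tested genes, the shares called higher and lower were 28.9% and 29.5% for dCD versus WT, 43.4% and 28.4% for dKO versus WT, and 27% and 42.3% for dCD versus dKO. Duxf3, the mouse Dux gene and an activator of 2-cell stage genes including Zscan4, measured 3.11, 2.99 and 3.34 TPM in dCD, 0.29, 0.26 and 0.21 TPM in dKO, and 0.19, 0.36 and 0.17 TPM in WT. The dCD libraries stood apart and the other lines overlapped. Its log2 fold change was 1.74 for dCD versus WT (SE 0.106, limma adjusted p = 3.11e-07) and 0.02 for dKO versus WT (limma adjusted p = 0.894). Duxf3 passed the filter through the dCD libraries, and in dKO and WT it rested on 3 to 12 reads per library.

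Other activators moved otherwise. Nelfa, a subunit of the pausing factor NELF that also activates Dux, rose in dCD (0.34) and in dKO (0.18) against WT. Dppa4, which forms a complex with Dppa2 upstream of Dux, fell in both mutants, by 0.48 in dCD and by 0.51 in dKO. Rarg, a retinoic acid receptor, fell by 0.33 in dCD and by 0.93 in dKO. Dppa2, chosen after its values were seen, measured 160.99, 163.84 and 139.37 TPM in dCD, 38.06, 41.37 and 37.55 TPM in dKO, and 155.56, 161.57 and 158.63 TPM in WT. It was lower in dKO than in WT (-2.0 on the log2 scale, SE 0.0583, limma adjusted p = 5.91e-10) and did not pass the test in dCD against WT (-0.04, limma adjusted p = 0.599).

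Genes listed as keeping the 2-cell-like state off were called in both directions. Of 36 tested, 12 were higher and 14 lower in dCD against WT, with a median of 0.01, and 11 were higher and 18 lower in dKO against WT (median -0.06). The background was 28.9% of tested genes called higher and 29.5% called lower in dCD, and 43.4% higher and 28.4% lower in dKO, so the dCD counts are near those of all genes. Uhrf1, the DNA methylation cofactor, fell by 0.69 in dCD and by 0.58 in dKO, and Setdb1, an H3K9 methyltransferase, by 0.51 in dCD and by 0.35 in dKO. L3mbtl2, a subunit of the non-canonical Polycomb complex PRC1.6, fell by 0.45 in dCD and by 0.50 in dKO. E2f6, another subunit of it, rose by 0.74 in dCD and by 1.35 in dKO.

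Other genes of the 2-cell-like state were also higher in dCD. The list held 35 genes, 34 with a row and 24 tested, Duxf3 among them. In dCD 23 were higher than in WT and 1 lower, beside 28.9% and 29.5% of all tested genes. The list's median log2 fold change was 1.77, and that of all tested genes -0.01. By at least 2-fold 21 of the list were higher, beside 4.62% of all tested genes. In dKO 10 were higher and 1 lower, beside 43.4% and 28.4% of all tested genes, with a median of 0.10, the same as that of all tested genes. In dCD against dKO 23 were higher and 1 lower, beside 27% and 42.3% of all tested genes (medians 1.60 and -0.10). Of the 24, 14 passed the filter only through dCD, and such genes are low in dKO and WT. Of the 10 that did not need it, 9 were higher and 1 lower in dCD against WT (median 2.44). In dKO against WT 7 of these 10 were higher and 1 lower (median 0.68), so the median of 0.10 depends on the filter. In dCD against dKO 9 of them were higher and 1 lower (median 1.49). The summed level of the list was 166 to 170.5 TPM in dCD, 37.5 to 39.4 in dKO and 21.9 to 23.4 in WT.

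Usp17le, a deubiquitinase gene of a repeated family, measured 17.16, 16.68 and 17.41 TPM in dCD, 4.94, 6.46 and 5.68 TPM in dKO, and 1.16, 0.78 and 0.87 TPM in WT, and the 3 lines did not overlap. Its log2 fold change was 3.23 for dCD versus WT (limma adjusted p = 2.13e-09) and 1.79 for dKO versus WT (limma adjusted p = 5.62e-08). Gm5662 was at 2.27 and Gm8300 at 2.67 for dCD versus WT, and at 0.04 (limma adjusted p = 0.692) and 0.28 (limma adjusted p = 0.0412) for dKO versus WT. Pramel6 went the other way in dCD, with 0.75, 0.89 and 0.71 TPM in dCD, 0.12, 0.00 and 0.11 TPM in dKO, and 2.84, 2.33 and 2.34 TPM in WT. Its log2 fold change was -0.97 for dCD versus WT (limma adjusted p = 3.18e-05).

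**Figure D4:**
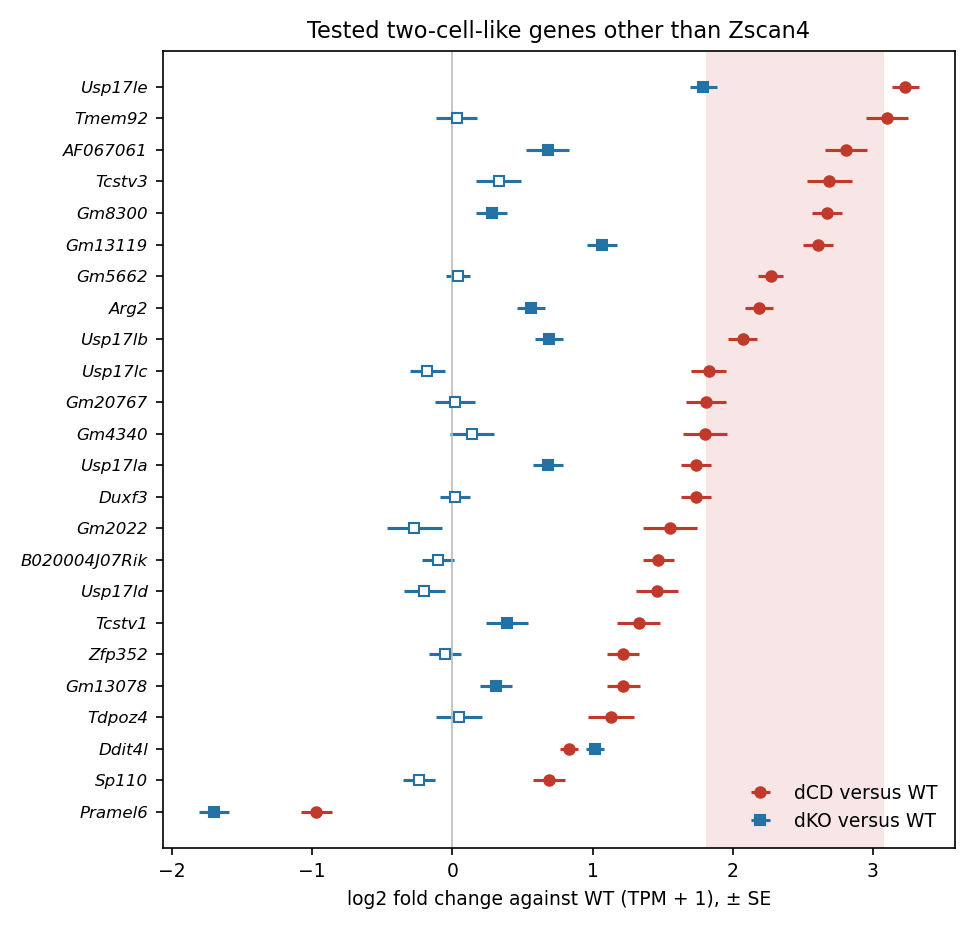
Log2 fold change against WT (horizontal axis, difference of log2(TPM + 1)) of the 24 tested 2-cell-like genes other than Zscan4 in dCD (red circles) and dKO (blue squares); bars are the limma SE, filled symbols have an adjusted p under 0.05 and the red band spans the dCD values of the 6 Zscan4 copies, 1.81 to 3.08. In dCD only Pramel6, at -0.97, lies below 0, and Usp17le at 3.23 and Tmem92 at 3.10 lie above the band.

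Telomere and meiotic recombination genes, the machinery linked to Zscan4, did not move together. Of 15 tested, 6 were higher and 8 lower in dCD against WT (median -0.16), and 6 were higher and 7 lower in dKO against WT (median -0.10). The background was again 28.9% called higher and 29.5% called lower in dCD, and 43.4% and 28.4% in dKO. Sycp3, a component of the synaptonemal complex, had a log2 fold change of 1.71 in dCD and -0.43 in dKO against WT. Dmc1, the meiotic recombinase, fell by 1.26 in dCD and by 1.47 in dKO. Genes of meiotic cohesin went both ways. Smc1b fell by 1.28 in dCD and by 2.88 in dKO, and Stag3 by 0.66 in dCD and by 1.17 in dKO. Rec8, named after its values were seen, rose by 0.57 in dCD (limma adjusted p = 1.82e-06) and by 0.99 in dKO (limma adjusted p = 1.23e-08).

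Marker lists of cell types were taken as a check of what the libraries hold. For their counts against WT, the background in dCD was 28.9% higher and 29.5% lower. In dKO it was 43.4% higher and 28.4% lower. By at least 2-fold, the background of higher genes was 4.62% in dCD and 6.01% in dKO. All 12 embryonic stem cell markers, which define the labelled cell type, were detected and tested. In dCD 1 was higher and 10 lower than in WT, and the counts were the same in dKO. Their summed level was 12475 to 12812 TPM in dCD, 8984 to 9071 in dKO and 16700.0 to 17162 in WT. Dppa5a alone averaged 4909 TPM in dCD, 1199 in dKO and 6433 in WT, and it made most of the gap between the mutant sums. Against dKO, 5 of the 12 were higher in dCD and 5 lower (median log2 difference -0.04), beside 27% and 42.3% of all tested genes. Of 11 tested fibroblast and feeder cell markers, 10 were higher in dCD than in WT and none lower (6 by at least 2-fold), with a summed level of 1043 to 1127 TPM in dCD, 244 to 265 in dKO and 54.2 to 58.5 in WT. In dKO 8 were higher than in WT, each by at least 2-fold, and 2 lower. Most of the summed level in dCD came from the contractile genes Acta2 (520.0 TPM) and Tagln (468 TPM). The matrix genes Postn, Lum and Dcn lay at or below 0.487 TPM in each line's mean and were too low to be tested. Col5a2, another matrix gene, averaged 17.9 TPM in dCD, 4.07 in dKO and 0.541 in WT. Against dKO, 7 of these 11 markers were higher in dCD and 3 lower, with a median log2 difference of 0.86. The background for that comparison was 27% higher and 42.3% lower. The 3 lower markers were Col1a1, Fbn1 and Twist1, with log2 differences of -0.39, -0.29 and -0.92. For trophoblast markers, 7 of 9 tested were higher and 1 lower in dCD against WT, with 609 to 647 TPM in dCD, 133 to 138 in dKO and 109 to 119 in WT, and the placental genes Prl3d1 and Tpbpa were listed at 0. Primitive endoderm markers summed to 765 to 796 TPM in dCD, 159.9 to 161 in dKO and 431 to 446 in WT (6 of 9 higher and 1 lower in dCD against WT). In each of the trophoblast and primitive endoderm lists, 1 tested marker passed the filter only through dCD, so its call is not support of its own. Without it, 6 of 8 trophoblast and 5 of 8 primitive endoderm markers were higher, and 1 of each list was lower. Most of the trophoblast sum in dCD came from Krt8 (205 TPM) and Krt18 (311 TPM). Sparc (438 TPM) and Col4a1 (285 TPM) gave most of the primitive endoderm sum there. The lower marker in dCD against WT was Ascl2 (-0.61) in the trophoblast list and Lama1 (-1.26) in the primitive endoderm list. In dCD the fibroblast, trophoblast and primitive endoderm sums were above those of the other lines, as for Zscan4. Their part in the Zscan4 result was not tested.

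The genes whose profile over the 9 libraries lay nearest to the summed Zscan4 level were found by the root mean square difference of centred log2(TPM + 1). Krt19, a keratin of simple epithelia, was nearest at 0.124. It measured 40.59, 41.23 and 40.41 TPM in dCD, 4.94, 4.69 and 5.28 TPM in dKO, and 2.91, 3.41 and 3.90 TPM in WT. Its levels fell into the same 3 steps, with dCD far above the other lines. Epn3, Dab2 and Fbp2 followed at 0.193, 0.203 and 0.225, then Krt8, Cyr61, Nxf7, Car4, Vnn1 and Tmem92 at 0.247 to 0.278. The Zscan4 copies themselves lay at 0.187 to 0.691 from the sum, and the median of all tested genes was 1.52. The added 1 shrinks the changes of low single copies more than those of the sum. A copy's distance from the sum therefore depends on its level as well. Tmem92, which is on the 2-cell-like list, had a log2 fold change of 3.10 for dCD versus WT and 0.03 for dKO versus WT. The other 9 differed from WT in both mutants at a limma adjusted p under 0.05. All were chosen by their profile over the same libraries, so these calls are not support of their own. Epn3 and Vnn1 also passed the filter only through the dCD libraries. Libraries of 3 lines give few distinct profiles, so a small distance describes these lines only.

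**Figure D5:**
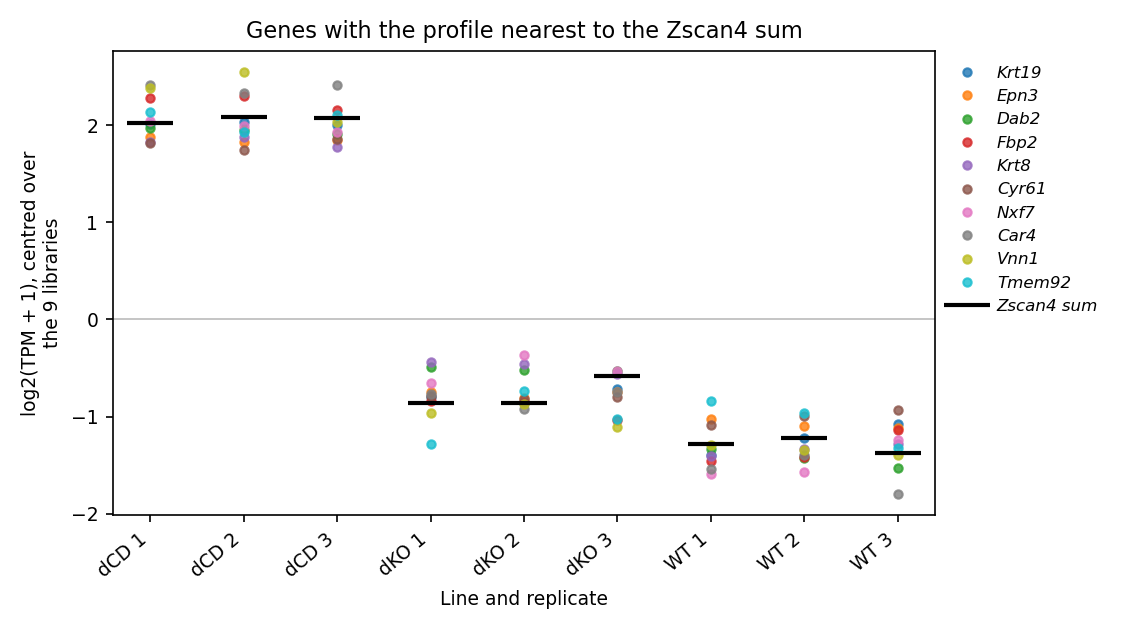
Level on the log2(TPM + 1) scale, centred on each gene's mean (vertical axis), of the 10 genes nearest in profile to the summed Zscan4 level over the 9 libraries (horizontal axis); black bars are the Zscan4 sum. Krt19 lies nearest, with a root mean square difference of 0.124.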

How the data were processed

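RNA-seq libraries of 3 lines were analysed (3 each of dCD, dKO and WT, grouped by the labels' titles); the other assays of the series were not analysed here. The authors deposited TPM values per gene with a gene length. The tools HISAT2, featureCounts and DESeq2 and the build mm9 are named, per the submitters' processing notes, without versions or roles. How multi-mapping reads were handled, which annotation was used and whether strand was counted is not given in the sources used here.

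Reads were recovered from TPM times length, and 100% of values came out whole within 0.01. The test was limma 3.58.1 (R 4.3.3) on genes with at least 1 TPM in at least 3 libraries (lmFit, eBayes with a trend) on log2(TPM + 1), two-sided, with Benjamini-Hochberg adjustment and a threshold of 0.05. The family sum was TPM times length as a share of the library total (RPM). Tables used Python 3.11.15, pandas 2.3.3, numpy 2.4.6 and scipy 1.17.1, and plots matplotlib 3.10.9. Promoter sequences and the gene order came from RefSeq (GRCm38.p6). Replicates differed beyond sampling noise (chi-square over its degrees of freedom 1.58 to 4.14).

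The members and gene lists were chosen with earlier results of these data known. Besides the 6 copies, Kmt2c and Kmt2d, the genes named were up to 4 per list with the smallest p in dCD versus WT, with both directions present where both were called, the 10 nearest profiles and the 10 flanking genes on each side. The lists were 2-cell-like genes, their activators and repressors, telomere and meiotic genes, other SCAN domain genes, and markers of embryonic stem cells, fibroblasts, trophoblast, primitive endoderm and germ cells. Alternatives were another pseudocount (0.1), no filter, a filter of 5 TPM, median-ratio scaling, voom on recovered reads, only the 2 lines compared, a replicate block and leaving out each library.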

Additional observations from a re-analysis of the deposited data

Results flagged for a closer look

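Each Zscan4 copy responded differently in the 2 mutant lines, by the direct test of dCD against dKO in limma. The log2 difference, dCD minus dKO, was 2.98 for Zscan4a, 2.46 for Zscan4d, 2.38 for Zscan4c, 2.21 for Zscan4e, 2.04 for Zscan4f and 1.53 for Zscan4b. The limma adjusted p was 2.22e-09 for Zscan4a and 2.86e-06 for Zscan4b, the lowest and the highest of the 6. Zscan4b and Zscan4f passed the filter through the dCD libraries, so their calls are not support of their own. For each copy every dCD library lay above every dKO library (3 of 3 against 3), as for 28.4% of all tested genes. Of all tested genes, 27% were called higher in dCD than in dKO.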

How the results depend on the processing

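In dCD versus WT and in dCD versus dKO, all 92 values of the 6 copies under the alternatives kept their direction and call; Zscan4b was not tested at a minimum of 5 TPM or without any 1 dCD library, which leaves 5 members called. In dKO versus WT 87 of 92 did, and the 5 others are given with the copies above. The family ratio on the log2 scale stayed between 3.49 and 3.60 for dCD over WT, 0.49 and 0.78 for dKO over WT, and 2.79 and 3.03 for dCD over dKO. Adding further rows named Zscan4 gave no value, since there were none. The 23 higher 2-cell-like genes of dCD versus WT became 11 at a minimum of 5 TPM, and those of dCD versus dKO became 10; leaving out 1 library gave 12 to 23 in both comparisons, since fewer genes passed the filter without a dCD library. Under median-ratio scaling the difference of dCD and dKO turned for Zfp42 (0.09, main -0.00) and Sox2 (0.02, main -0.08); that scaling shifts all genes alike, and the median of all tested genes was -0.01 with it, against -0.10 without. Counts of all genes called at least 2-fold in dCD versus WT were 1123, against 1744 with a pseudocount of 0.1, 695 at a minimum of 5 TPM and 1854 with voom, and in dCD versus dKO 1774 against 2711 with voom. Single copies in dKO and WT rest on 3 to 135 reads per library.

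Replicate numbers do not pair the samples: same-numbered libraries of different lines had deviations correlated at -0.05 to 0.04. With the replicate number as a block, 6, 3 and 6 members were called in dCD versus WT, dKO versus WT and dCD versus dKO, as without it, and 9273, 11533 and 11114 genes in all, against 9453, 11617 and 11220 without the block.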

Other observations

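Genes that share the SCAN domain with Zscan4 were called at about the rate of all genes in dCD. Of 29 tested, 7 were higher and 8 lower in dCD against WT (median log2 fold change -0.01), and 17 were higher and 7 lower in dKO against WT (median 0.26). The background was 28.9% of tested genes called higher and 29.5% called lower in dCD, and 43.4% higher and 28.4% lower in dKO. Zscan10, a pluripotency factor of this family, measured 164 ± 5.64 TPM in dCD, 130.0 ± 1.91 in dKO and 194 ± 6.22 in WT (SD, n = 3 each), and was lower in both mutants than in WT (-0.24 in dCD, limma adjusted p = 8.95e-05; -0.57 in dKO, limma adjusted p = 5.83e-08). Zscan5b fell by 1.61 in dCD and by 1.99 in dKO, and Scand1, which holds a SCAN domain without zinc fingers, rose by 0.53 in dCD and by 0.58 in dKO. Of 8 tested germ cell markers 5 were higher and 2 lower in dCD against WT, and 4 were higher and 4 lower in dKO against WT. Among these 8, 1 passed the filter only through dCD. Of the 7 others, 4 were higher and 2 lower in dCD, and 3 were higher and 4 lower in dKO. Dazl, an RNA-binding protein of germ cells, measured 26.6 ± 0.673 TPM in dCD, 4.18 ± 0.407 in dKO and 10.9 ± 1.18 in WT, higher in dCD (1.22, limma adjusted p = 4.26e-07) and lower in dKO (-1.20, limma adjusted p = 2.12e-07).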
